A study of Mus musculus with 9 samples.

Results

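The immunity-related GTPases (IRG proteins, also called p47 GTPases) were read in mouse gastrocnemius muscle through 10 genes chosen by symbol: Irgm1, Irgm2, Igtp, Iigp1, Ifi47, Tgtp1, Tgtp2, Gm12250, Gm4841 and F830016B08Rik. They are 10 of the 55401 genes in the count tables. The gastrocnemius is a calf muscle. All 9 libraries were made from gastrocnemius of wild-type FVB mice described as 2 to 3 months old, and the mice were killed 7 weeks after the muscle was injected. There were 3 treatments with 3 libraries each. The saline group received saline alone. The AAV-GFP group received an adeno-associated virus vector carrying GFP, a jellyfish fluorescent protein. The AAV-GFP-MBNL1∆ group received a vector carrying GFP with MBNL1∆, a form of the splicing regulator MBNL1 that the series title presents as a decoy for expanded CUG repeats. The mice being wild type, no group models the disease in that title. Promoter, serotype and dose of the vectors are not stated in the labels. Whether each library of a group came from its own animal is also not stated, and p-values here cover the spread among libraries, which may be technical.

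IRG proteins are GTPases that interferons, above all interferon gamma, induce strongly in many mouse cell types. The effector members load onto the membrane of the vacuole in which parasites such as Toxoplasma live and help to break it open. The regulatory members Irgm1, Irgm2 and Igtp (also called Irgm3) sit on the cell's own membranes and hold the effectors inactive there. Iigp1 (Irga6), Tgtp1 and Tgtp2 (Irgb6), Ifi47 (Irgd) and Gm12250 (Irgb10) are effectors, and Irgb10 also acts on bacterial membranes. Gm4841 and F830016B08Rik are less studied relatives.

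Of the 10 genes, 7 had enough counts to be tested, and the other 3 were treated as not measurable in these tables. Igtp, a regulator, had 8 counts over all 9 libraries, and Tgtp1 had 7. Ifi47 had 0 counts in every library. Each of the 3 genes lies within or across another gene model on the same strand. In the GENCODE M21 annotation, Igtp lies inside the span of Irgm2 except for 62 bases, Ifi47 lies wholly inside the span of Olfr56, and Tgtp1 overlaps Gm12185. This position went with a count of 0 far beyond the family. Among protein-coding genes, 412 of 436 (94.5%) that lie inside the span of another gene on their strand had no count in any library. Of those sharing no exon base with it, 233 of 256 (91.0%) had none. The share was 22.3% of 815 genes inside a gene on the opposite strand only, and 24.7% of 11693 genes that overlap no other gene. Of the 3 genes only Ifi47 belongs to that class in full. Igtp has 62 exon bases outside the other span, and Tgtp1 has 414 of 3205. Of the 50-base stretches of Tgtp1, 79.4% also occur in Tgtp2. The low counts of Igtp, Ifi47 and Tgtp1 are therefore not taken as a measure of whether muscle made these RNAs. These genes enter no comparison. Irgm2 held 105713 counts over the 9 libraries, Gm12185 held 50380 and Olfr56 held 871. How the counting assigned the reads of Igtp, Tgtp1 and Ifi47 cannot be read from these tables. Gm12185 and Olfr56 were looked at after their values were seen.

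**Figure D1:**
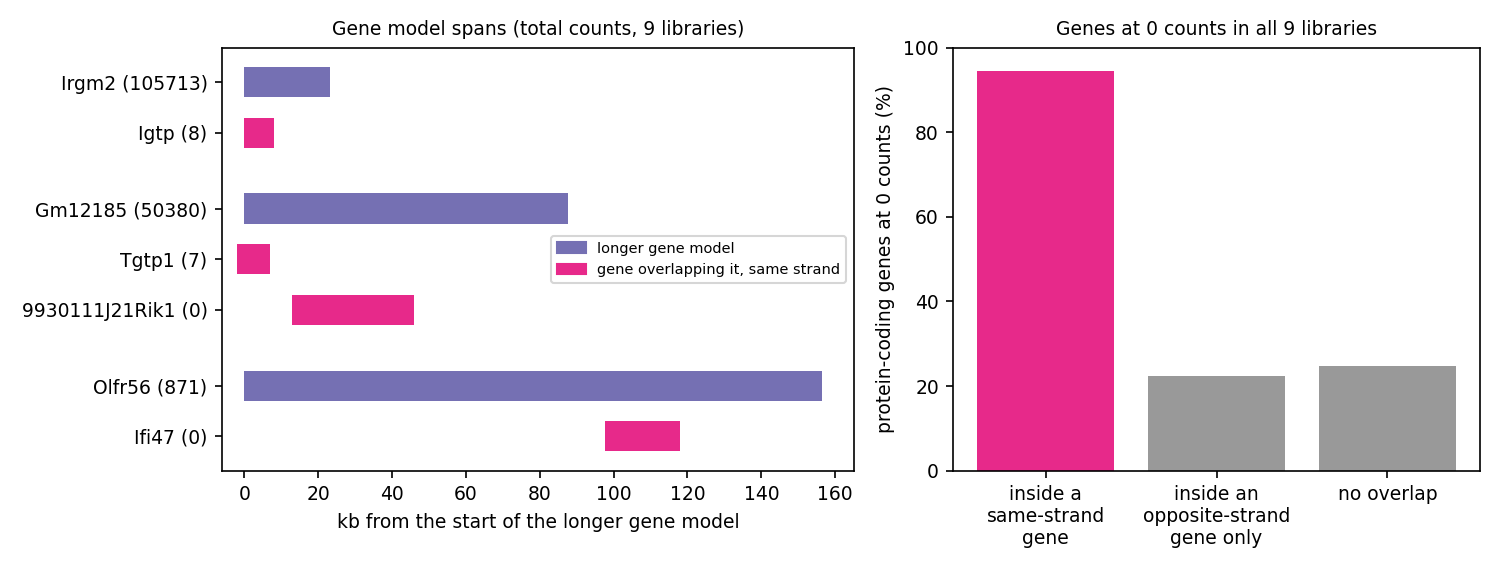
Left: spans of 3 longer gene models and of the genes overlapping them on the same strand, in kb from the start of the longer model, with the total count over 9 libraries in parentheses. Right: percent of protein-coding genes with 0 counts in all 9 libraries, by their position relative to other genes. Igtp, Tgtp1 and Ifi47 have 8, 7 and 0 counts beside 105713, 50380 and 871 for the longer models, and 94.5% of genes inside a gene of their strand are at 0.

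The sequences before the transcription starts are shown because several members on chromosome 11 have motifs in common there. The RefSeq start windows of build GRCm38.p6 matched 7 of the 10 members, all on chromosome 11, of which Igtp, Tgtp1 and Ifi47 had no usable counts. Iigp1, Gm4841 and F830016B08Rik were not matched. A pair of motifs was searched on both strands in the 250 bases before the start: GAAANNGAAA, a core of the interferon-stimulated response element (ISRE) that IRF factors bind, and TTCNNNGAA, the gamma-activated site (GAS) of interferon gamma targets. The GAS motif reads the same on both strands, and overlapping matches were counted separately. An ISRE match was present in 6 of the 7 windows, Ifi47 being the exception, against 978 of all 32851 windows (2.98%). A GAS match was present in 5 of the 7, against 2306 of all windows (7.02%). Both motifs lay within 20 bases of each other in those 5 windows and in 40 of all windows (0.122%). In Irgm2, Igtp, Tgtp1 and Tgtp2, the motifs are 2 bases apart, and in Gm12250 they are 6 bases apart with the ISRE on the minus strand. Irgm1 has a pair of overlapping ISRE matches and no GAS match in its window. In these lines, written from 5′ to 3′ on the strand of the gene, capitals mark GAS and ISRE matches that lie wholly within them.
Irgm1, chr11:48871421-48871484, minus strand: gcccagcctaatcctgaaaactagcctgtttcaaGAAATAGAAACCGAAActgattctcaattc
Irgm2, chr11:58214873-58214942, plus strand: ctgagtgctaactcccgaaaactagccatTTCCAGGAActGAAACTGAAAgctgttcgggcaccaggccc
Igtp, chr11:58199482-58199551, plus strand: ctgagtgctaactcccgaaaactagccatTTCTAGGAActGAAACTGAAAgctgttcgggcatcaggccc
Tgtp1, chr11:48992294-48992363, minus strand: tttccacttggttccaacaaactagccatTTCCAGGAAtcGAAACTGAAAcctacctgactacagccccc
Tgtp2, chr11:49064253-49064322, minus strand: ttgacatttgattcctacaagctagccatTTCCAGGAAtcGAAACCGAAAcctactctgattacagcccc
Gm12250, chr11:58183757-58183826, plus strand, start given by RefSeq: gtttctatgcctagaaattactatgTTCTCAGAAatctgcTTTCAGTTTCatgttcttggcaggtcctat
The stretches of Irgm2 and Igtp are the same at 68 of 70 bases (97.1%), those of Tgtp1 and Tgtp2 at 53 (75.7%), and those of Irgm2 and Tgtp2 at 47 (67.1%). Windows this alike are not independent of each other, so the counts over 7 windows beside all windows are a description only. The shown ISRE match ends 54 bases before the start of Irgm2, 24 before Igtp, 67 before Tgtp1, 60 before Tgtp2, 36 before Gm12250 and 14 before Irgm1. A match is a description of letters and not of binding. Gm12185, which overlaps Tgtp1 and is no member, also holds both motifs 2 bases apart.

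The libraries held between 44603618 and 76970849 counts assigned to genes. Levels are given as CPM, the counts of a gene scaled to a library of fixed size after TMM normalization. Genes that mark muscle fibres summed to between 101700 and 210100 CPM in every library, as the label of the tissue requires. The 3 AAV-GFP-MBNL1∆ libraries differed from the other 6 in genes that differ between the sexes. Xist, which the inactive X chromosome expresses, was between 0.0182 and 0.0902 CPM there and between 105 and 136 CPM in the other 6 libraries. Ddx3y, on the Y chromosome, was between 82.7 and 84.6 CPM there and between 0.409 and 2.58 CPM in the others. In every comparison with AAV-GFP-MBNL1∆, sex and treatment cannot be told apart. Saline and AAV-GFP do not differ in this way. Muscle is a mixture of cells, and more cells of a type cannot be told apart from more RNA per cell in any value here.

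In the 3 AAV-GFP libraries, all 7 measured IRG genes lay above every saline library, as did 14.7% of all genes tested. The group means of the 7 genes differed by 11.1-fold to 83.6-fold. No adjusted p passed the threshold, for these or any other genes, and levels differed several-fold among the 3 AAV-GFP libraries. Means carry the SD of 3 libraries. Irgm1, the regulator that also takes part in autophagy and mitochondrial control, stood at 18.03, 19.0 and 27.1 CPM in the saline libraries 1 to 3. It stood at 211, 436 and 66.6 CPM in the AAV-GFP libraries, and at 40.6, 34.3 and 24.5 CPM with AAV-GFP-MBNL1∆. The lowest AAV-GFP library was above all others outside its group, while the saline and AAV-GFP-MBNL1∆ libraries overlapped. Irgm2, the second regulator, stood at 28.8, 13.1 and 33.0 CPM with saline, at 494, 678 and 123 CPM with AAV-GFP, and at 53.5, 37.9 and 20.9 CPM with AAV-GFP-MBNL1∆. As for Irgm1, AAV-GFP 2 was the highest and AAV-GFP 3 the lowest library of the group, and saline overlapped AAV-GFP-MBNL1∆.

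Iigp1 is the effector of this family studied most in biochemical detail. It stood at 8.33, 11.2 and 31.8 CPM with saline, at 779, 1402 and 158 CPM with AAV-GFP, and at 100.2, 80.0 and 33.6 CPM with AAV-GFP-MBNL1∆. The 3 groups did not overlap, although AAV-GFP-MBNL1∆ 3 was only just above saline 3. Tgtp2 stood at 1.59, 2.42 and 8.86 CPM with saline, at 49.4, 171 and 19.4 CPM with AAV-GFP, and at 9.08, 9.49 and 3.06 CPM with AAV-GFP-MBNL1∆. Saline 3 was above AAV-GFP-MBNL1∆ 3, so those groups overlapped. Of the 50-base stretches in the exons of Tgtp2, 85.8% also occur in Tgtp1, so its counts rest on the few reads that fit 1 copy and are uncertain in level. Gm12250 stood at 0.549, 0.727 and 1.69 CPM with saline, 29.9, 89.9 and 8.32 CPM with AAV-GFP, and 4.83, 5.27 and 1.60 CPM with AAV-GFP-MBNL1∆. GENCODE M21 models it as a processed pseudogene of chromosome 11, bases 58187739 to 58189012, while RefSeq holds a protein-coding gene over bases 58183843 to 58190198, so the count covers a portion of that gene. Its saline and AAV-GFP-MBNL1∆ libraries overlapped.

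The remaining measured members lie with Iigp1 on chromosome 18, within bases 60268305 to 60392634 of mm10. Gm4841 stood at 19.3, 10.2 and 15.4 CPM with saline, 1439, 2087 and 228 CPM with AAV-GFP, and 157, 114 and 60.9 CPM with AAV-GFP-MBNL1∆. Its 3 groups were fully separate. F830016B08Rik stood at 12.3, 6.12 and 7.503 CPM with saline, at 313, 484 and 69.5 CPM with AAV-GFP, and at 76.0, 52.6 and 40.3 CPM with AAV-GFP-MBNL1∆. Both vector groups were above saline, but AAV-GFP 3 fell inside the range of the AAV-GFP-MBNL1∆ libraries.

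**Figure D2:**
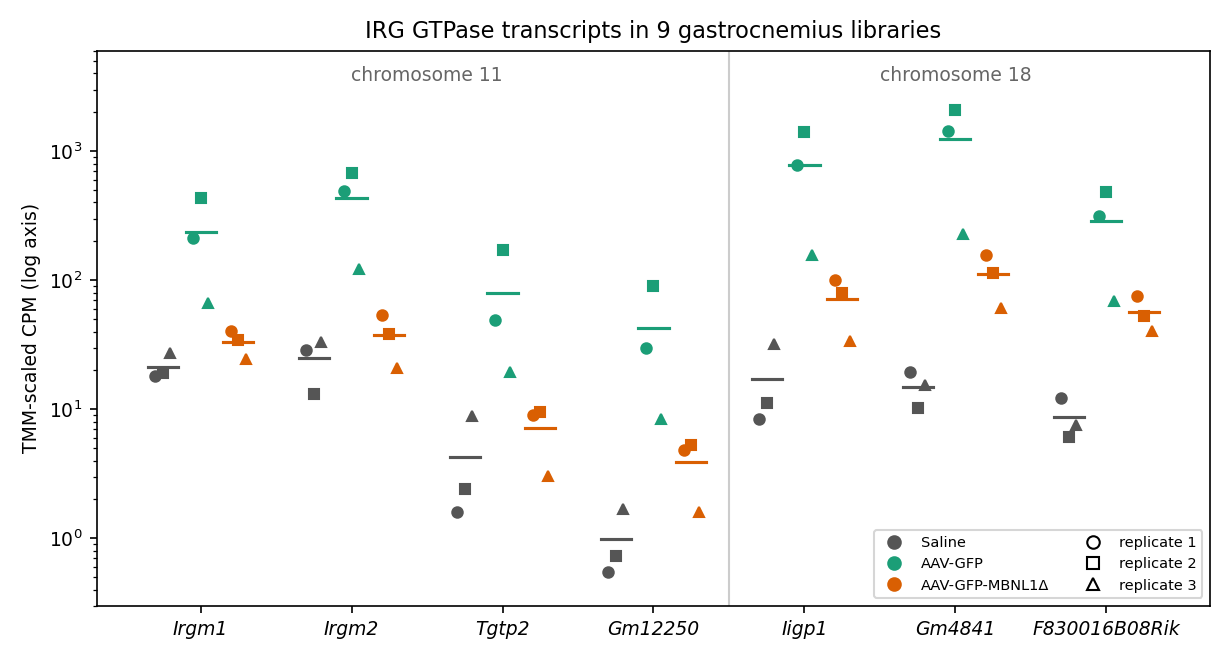
Level of the 7 measured IRG genes in each of the 9 libraries, in TMM-scaled CPM on a log axis, by treatment group. In every panel the highest library is AAV-GFP 2 and the lowest AAV-GFP library is number 3, which is still above all saline libraries.

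The comparison between AAV-GFP and saline asks what the vector and its GFP cargo did to the muscle. Group means were 21.4 ± 4.96 CPM with saline and 238 ± 186 with AAV-GFP for Irgm1, the smallest fold of the 7 (11.1), and 15.0 ± 4.56 and 1251 ± 944 CPM for Gm4841, the largest (83.6; SD, n = 3). By edgeR's quasi-likelihood test with Benjamini-Hochberg adjustment, 0 of 7 members passed an adjusted p of 0.05, as did 0% of the 18514 genes tested. All 7 members were higher at an unadjusted p under 0.05, as were 15.6% of all genes tested, and their adjusted p lay between 0.0841 and 0.0856. The fitted log2 fold changes ranged from 3.48 (SE 0.61) for Irgm1 to 6.38 (SE 0.87) for Gm4841, with a median of 5.06 against -0.01 for all genes tested. DESeq2's Wald test called all 7 members higher, along with 8.74% of genes, limma-voom called 0, and limma-voom with quality weights called 7. The share of all genes that limma-voom called is not given, so its counts are no result particular to the members. All 7 members had each AAV-GFP library above each saline library, which held for 14.7% of genes. Without AAV-GFP 3, edgeR called all 7 members higher, with adjusted p from 0.000950 to 0.0152, along with 15.3% of genes.

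AAV-GFP 3 stood apart within its group. Levels in AAV-GFP 2 were between 5.52-fold and 10.8-fold those in AAV-GFP 3 over the 7 genes. AAV-GFP 3 was itself above the highest saline library by between 2.20-fold for Tgtp2 and 11.8-fold for Gm4841. The sum of the 7 genes was 88.9, 62.8 and 125 CPM in the saline libraries, 3316, 5348 and 672 CPM with AAV-GFP, and 441, 334 and 185 CPM with AAV-GFP-MBNL1∆. In AAV-GFP 2 the 7 genes thus made up 0.673% of all counts, against at most 0.0125% with saline.

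The comparison of AAV-GFP-MBNL1∆ with saline asks what the vector with the decoy did. Here F830016B08Rik and Gm4841 rose by edgeR's test, by 2.71 (SE 0.64, adjusted p 0.0376) and 2.89 (SE 0.74, adjusted p 0.0470) on the log2 scale. The 2 called genes of 7 stand beside 4.76% of all genes called higher. Iigp1, their neighbour, was 2.06 higher (SE 0.82, adjusted p 0.158), and Gm12250 was 1.96 higher (SE 0.89, adjusted p 0.207). Irgm1, Irgm2 and Tgtp2 differed by 0.63 (SE 0.56), 0.58 (SE 0.62) and 0.74 (SE 0.91), each about as large as its error, with adjusted p from 0.526 to 0.657. Iigp1, Gm4841 and F830016B08Rik, 3 of 7, had every AAV-GFP-MBNL1∆ library above every saline library, as did 22.7% of all genes. Both calls rest on the full set of libraries. The call of Gm4841 was kept only when AAV-GFP 3 was the library left out, and that of F830016B08Rik only without AAV-GFP 2 or AAV-GFP 3. In the other single-library omissions their adjusted p reached 0.165 and 0.142.

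The comparison of the 2 vectors asks what changed with the MBNL1∆ cargo. All 7 members fell from AAV-GFP to AAV-GFP-MBNL1∆ by edgeR's test, where 10.3% of all genes were called lower. The largest drop was that of Irgm2, at -3.53 on the log2 scale (SE 0.68, adjusted p 0.0135), and the smallest was that of F830016B08Rik, -2.36 (SE 0.63, adjusted p 0.0364). Irgm1 changed by -2.84 (SE 0.59, adjusted p 0.0176). Gm4841, Tgtp2, Gm12250 and Iigp1 changed by -3.50, -3.48, -3.46 and -3.45, with adjusted p from 0.0192 to 0.0390. The median was -3.46, against -0.06 for all genes tested. In 6 of 7 members each AAV-GFP-MBNL1∆ library was below each AAV-GFP library, as for 19.2% of all genes, and F830016B08Rik was the exception. This comparison and the first share the AAV-GFP libraries, and all 3 comparisons share libraries in pairs. The number of calls depended on single libraries. The 7 members called became 4, 3 and 6 without saline 1, 2 and 3. They became 3, 2 and 7 without AAV-GFP 1, 2 and 3, and 2, 1 and 0 without AAV-GFP-MBNL1∆ 1, 2 and 3. The share of all genes called in these omissions is not given, so the counts are no result particular to the members. Irgm2 kept its call in 8 of 9 omissions, Irgm1 and Gm4841 in 6 each, Iigp1 in 3, Tgtp2 and Gm12250 in 2 each, and F830016B08Rik in 1.

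**Figure D3:**
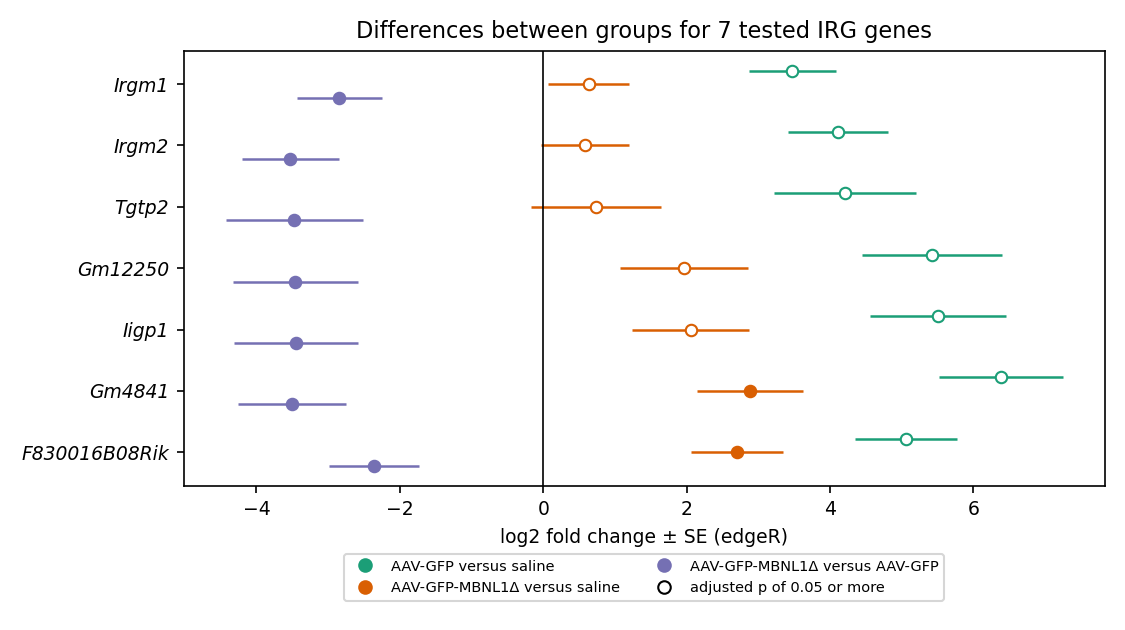
Fitted log2 fold change of the 7 measured IRG genes in each of the 3 comparisons, with bars of 1 standard error, from the edgeR fit over all 9 libraries; filled points have an adjusted p under 0.05. Against saline the values with AAV-GFP lie between 3.48 and 6.38 and those with AAV-GFP-MBNL1∆ between 0.58 and 2.89.

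The members did not change in proportion to one another. Per kilobase of exon lying outside other gene models of the same strand, which corrects for length and overlap but not for sequence shared with related genes, Irgm2 had the highest mean level with saline, at 7.09 CPM per kb, followed by Gm4841 at 5.27 and Irgm1 at 3.68. With AAV-GFP the order was led by Gm4841 at 441 CPM per kb, followed by Iigp1 at 134 and Irgm2 at 122. With AAV-GFP-MBNL1∆ Gm4841 again led, at 39.0 CPM per kb, followed by F830016B08Rik at 17.1 and Iigp1 at 12.2. Irgm1, behind Irgm2 and Gm4841 with saline, also ranked behind Iigp1 and F830016B08Rik with either vector. Gm12250 was at 0.776 CPM per kb with saline and 33.5 with AAV-GFP. Tgtp2 was at 1.46 and 27.2 CPM per kb, values that are not ranked here because most of its sequence also occurs in Tgtp1. The SDs with AAV-GFP, taken between libraries, were near the means. Within AAV-GFP libraries 1 to 3, Gm4841 held 53.2%, 48.4% and 42.7% of the summed per-kb level of the tested genes. Iigp1 held 14.05%, 15.85% and 14.43%, and Irgm2 held 14.7%, 12.66% and 18.54%. Gm4841 was thus ahead in each library, while Iigp1 and Irgm2 changed order between libraries.

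A ratio taken within each library is less affected by how strongly that library responded. The summed level of the 3 chromosome 18 genes divided by that of the 4 tested chromosome 11 genes was 0.814, 0.781 and 0.774 in the saline libraries. It was 3.23, 2.89 and 2.09 with AAV-GFP and 3.09, 2.84 and 2.69 with AAV-GFP-MBNL1∆. The vector groups overlapped each other and lay wholly above saline, although the summed level differed several-fold between them. The means were 0.790 ± 0.0216, 2.74 ± 0.581 and 2.87 ± 0.198 (SD, n = 3). In two-sided exact permutation tests p was 0.1 for each vector against saline, the smallest that 3 against 3 libraries allow, and 0.9 between the vectors. Gm4841 carries much of the ratio, and without it the values were 0.420, 0.492 and 0.556 with saline, 1.39, 1.37 and 1.05 with AAV-GFP, and 1.63, 1.53 and 1.48 with AAV-GFP-MBNL1∆. In that version the vector groups no longer overlapped, AAV-GFP-MBNL1∆ being the higher. The exact permutation p was 0.1 for all 3 comparisons, which restates the lack of overlap and adds nothing to it. Between the vectors, the outcome thus depended on whether Gm4841 was included. The ratio and the version without Gm4841 were chosen after the values were seen, so their p-values are description and no support. A ratio shows unequal change and not which genes changed.

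**Figure D4:**
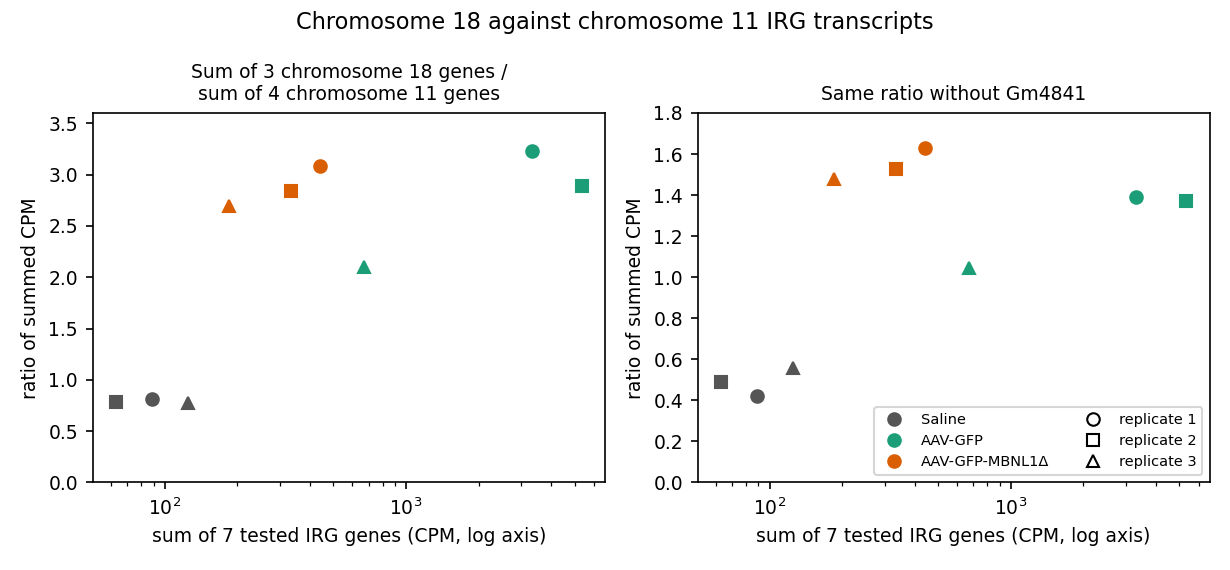
Summed CPM of Gm4841, F830016B08Rik and Iigp1 divided by that of Irgm1, Irgm2, Tgtp2 and Gm12250 in each library, by treatment group. Saline libraries lie between 0.774 and 0.814 and vector libraries between 2.09 and 3.23.

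Of 6 further IRG genes and relatives in the tables, 4 were tested. From AAV-GFP to AAV-GFP-MBNL1∆ 3 fell, where 10.3% of all genes were called lower, and none rose. Against saline no call was made with either vector. With AAV-GFP 3 of 4 were higher at an unadjusted p under 0.05, against 15.6% of all genes. Gm4951 followed the members, from 0.894 ± 0.188 CPM with saline to 19.4 ± 18.5 with AAV-GFP and 2.26 ± 1.04 with AAV-GFP-MBNL1∆ (vector against vector log2 -3.11, SE 0.77, adjusted p 0.0286 by edgeR; SD, n = 3). Gm5431 fell between the vectors by 2.08 on the log2 scale (adjusted p 0.0463). Irgq, a relative that is not known as interferon-induced, was at 32.1 ± 3.08, 27.7 ± 3.37 and 34.5 ± 4.38 CPM, with adjusted p of 0.332, 0.645 and 0.0969 in the 3 comparisons. 9930111J21Rik1 lies inside Gm12185 and had 0 counts.

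The genes whose pattern was most like the mean of the tested members, by Pearson correlation of log2(CPM + 0.1) over the 9 libraries, were Gbp7 (r 0.992), Gm12185 (0.991), Ccl12 (0.991), Mmp25 (0.985), Gm4951 (0.984), Gbp2b (0.984), Ifit1 (0.983) and Zbp1 (0.982). All 9 points share library and depth, and 610 of 12202 genes considered had an r above 0.9, so likeness of this size was common. Gbp7 is a guanylate-binding protein, from another family of interferon-induced GTPases, and Zbp1 is a sensor of Z-form nucleic acid. Gm12185 stood at 8.26, 7.56 and 10.8 CPM with saline, at 173, 391 and 45.3 CPM with AAV-GFP, and at 22.5, 21.2 and 11.2 CPM with AAV-GFP-MBNL1∆. RefSeq lists Irgb2b1 among its names, so it is itself an IRG gene. It was 4.51 higher on the log2 scale with AAV-GFP than with saline (SE 0.73, adjusted p 0.0841 by edgeR) and fell by 3.47 between the vectors (SE 0.70, adjusted p 0.0156).

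The main inducer of the family was scarce in all libraries. Ifng, which encodes interferon gamma, was at 0.0147 ± 0.0144 CPM with saline, 0.821 ± 0.890 with AAV-GFP and 0.134 ± 0.0892 with AAV-GFP-MBNL1∆ (SD, n = 3). Its log2 fold changes were 5.72, 3.04 and -2.68 in the 3 comparisons, and edgeR's adjusted p of 0.0841, 0.231 and 0.0668 passed in none. Ifnb1, Ifna1, Ifna2 and Ifna4, which encode type I interferons, had no counts in any library. Irf1, a transcription factor that interferon gamma induces, was at 12.6 ± 3.93, 82.7 ± 66.6 and 19.3 ± 4.83 CPM with saline, AAV-GFP and AAV-GFP-MBNL1∆.

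Of 13 listed genes of interferon gamma signalling, 12 were tested. Against saline with AAV-GFP none passed, 7 were higher at an unadjusted p under 0.05 beside 15.6% of all genes, and the median log2 fold change was 1.57. Between the vectors, where 10.3% of all genes were called lower, 4 fell, among them Irf1 (-2.10), Nlrc5 (-2.87), the activator of MHC class I genes, and Socs1 (-2.43), a feedback inhibitor, with adjusted p from 0.0274 to 0.0371 for these 3. Jak2, the receptor-bound kinase, rose by 0.48 (adjusted p 0.0110 by edgeR) in that comparison and by 0.41 (adjusted p 0.0243) against saline, where Ifngr2, a receptor chain, fell by 0.60 (adjusted p 0.0363). Of 12 genes of type I interferon signalling 8 were tested, with 7 higher at an unadjusted p under 0.05 with AAV-GFP, again beside 15.6%. Between the vectors 3 fell, Stat2 (-1.66), Irf9 (-1.45) and Irf7 (-2.35). All 7 tested guanylate-binding proteins of 11 fell between the vectors, beside 10.3% of all genes, and all 7 were higher with AAV-GFP than saline at an unadjusted p under 0.05, beside 15.6%. With AAV-GFP-MBNL1∆ against saline no gene of the type I interferon or guanylate-binding protein lists passed, and 0 had an unadjusted p under 0.05, which 26.0% of all genes had. The other 4 guanylate-binding proteins, Gbp4, Gbp6, Gbp9 and Gbp10, were at 0 counts.

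The conjugation machinery that brings IRG and guanylate-binding proteins to vacuoles had a median change near 0, with single genes going either way. Of 14 listed genes 13 were tested, and their median log2 fold change was 0.07 with AAV-GFP and 0.07 with AAV-GFP-MBNL1∆ against saline. With AAV-GFP none passed against saline. At an unadjusted p under 0.05, 3 of the 13 (Ubd, Trim21 and Atg7) were higher, beside 15.6% of all genes, and 1 (Gabarapl2) was lower, beside 6.35%. Ubd, a ubiquitin-like protein that interferons induce, stood at 0.101, 0 and 0 CPM with saline, at 2.37, 21.3 and 0.531 CPM with AAV-GFP, and at 1.203, 0.818 and 0.375 CPM with AAV-GFP-MBNL1∆. Its adjusted p by edgeR was 0.0841, 0.148 and 0.0855 in the 3 comparisons. Both vector groups lay above saline and overlapped each other. Trim21, a ubiquitin ligase that interferons induce, was 1.41 higher on the log2 scale with AAV-GFP (SE 0.38, adjusted p 0.105), and Atg7, an enzyme of LC3 conjugation, was 0.54 higher (SE 0.19, adjusted p 0.169). With AAV-GFP-MBNL1∆, 1 gene rose and none fell against saline, where 4.76% of all genes were called higher and 4.6% lower. Against AAV-GFP 2 rose and 1 fell, where 10.8% were called higher and 10.3% lower. Map1lc3a, an LC3 protein that is attached to membranes, rose with AAV-GFP-MBNL1∆ by 1.05 (SE 0.10, adjusted p 0.000865 by edgeR) against saline and by 1.14 (adjusted p 0.000628) against AAV-GFP. Gabarapl2, of the same protein family, rose by 0.27 (adjusted p 0.0483) between the vectors, and Trim21 fell by 1.55 on the log2 scale (adjusted p 0.0285). Among the calls named here for the interferon, guanylate-binding protein and vacuole lists, those of Map1lc3a were kept in all 9 omissions of a library, and each of the others was lost in at least 1. Map1lc3b had 0 counts and lies inside the span of another gene.

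Summed markers of immune cells were at higher levels in every vector library than in every saline library. Their part in the result was not tested. The summed level of 15 T and natural killer cell markers was between 2.19 and 3.18 CPM with saline, between 10.3 and 131 with AAV-GFP, and between 7.93 and 21.5 with AAV-GFP-MBNL1∆. Cd8a was at 0 in the saline libraries. The sum of 14 monocyte and macrophage markers was between 134 and 167 CPM with saline, between 300.1 and 2606 with AAV-GFP, and between 247 and 369 with AAV-GFP-MBNL1∆, and Itgam was at 0 in every library. The sum of 7 B and plasma cell markers was between 0.333 and 1.07, between 3.14 and 907, and between 31.3 and 95.9 CPM, with Mzb1 at 0 throughout. Within each of these lists AAV-GFP 2 was the highest and AAV-GFP 3 the lowest of its group, as for the IRG genes. Across groups the order differed. AAV-GFP 3 had a higher IRG sum (672 CPM) than every AAV-GFP-MBNL1∆ library. Its B and plasma cell sum (3.14 CPM) was below all of theirs. Its T and natural killer cell sum (10.3) was below AAV-GFP-MBNL1∆ 1 and 2 (17.0 and 21.5) and above 3 (7.93). Its macrophage sum (300.1) was below AAV-GFP-MBNL1∆ 1 (369) and above 2 and 3 (298 and 247). For these immune cell lists, edgeR called no marker with AAV-GFP against saline. All tested markers (15, 12 and 6) were higher there at an unadjusted p under 0.05, as were 15.6% of all genes. The median log2 fold changes against saline were 5.77, 3.145 and 6.41 with AAV-GFP, and 3.67, 1.03 and 4.29 with AAV-GFP-MBNL1∆. By edgeR, 5 of 15 T and natural killer cell markers (Cd3e, Cd8b1, Lck, Nkg7 and Ncr1) rose with AAV-GFP-MBNL1∆ against saline, beside 4.76% of all genes. Each of them kept its call in 2 of 9 omissions. Between the vectors 1 of the 15 (Gzma) fell, as did 2 of 12 tested macrophage markers (Ccr2 and Fcgr1). Beside these, 10.3% of all genes were called lower. Of 6 tested B and plasma cell markers, 1 (Jchain) rose with AAV-GFP-MBNL1∆ against saline, beside 4.76% of all genes. Endothelial markers summed to between 270 and 438 CPM over all 9 libraries, with no call. Fibroblast markers summed to between 1463 and 2903 CPM, and 2 of 7 (Pdgfra and Dpt) fell between the vectors, again beside 10.3%. The muscle fibre marker sums were lowest with AAV-GFP, between 101700 and 165100 CPM. Of the 12 markers 1 was called between the vectors, where 10.8% of all genes were called higher. It was Acta1, skeletal actin, which rose by 0.76 on the log2 scale (adjusted p 0.0319 by edgeR).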

How the data were processed

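RNA was measured by sequencing of gastrocnemius muscle in 3 groups of 3 libraries, made with an mRNA kit from 250 ng of total RNA per the labels' protocols. The authors deposited whole-number read counts per gene, and the submitters' processing notes name cutadapt 2.10, STAR 2.7.5a, HTSeq 0.12.4 and DESeq2 1.30.0 with the build mm10. Annotation release and strandedness of counting: not given in the sources used here. Strandedness matters where antisense genes overlap. Gene IDs were matched to GENCODE M21, where 55141 of 55401 were found and 54349 had the same version. Summary rows that name no gene (16.8% to 18.3% of reads) were kept out of library sizes. Totals of 44603618 to 76970849 counts set the precision of low genes, and intervals from counting do not cover the spread between libraries.

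Of 30602 genes with a count, 18514 passed edgeR's filterByExpr. One edgeR 4.0.16 quasi-likelihood fit (R 4.3.3, TMM scaling, robust, 6 residual degrees of freedom) covered the 3 groups and the 3 comparisons, with p-values adjusted over all genes tested. The procedure was tested on simulated data. Alternatives were DESeq2 1.42.0, limma 3.58.1 voom with and without quality weights, other scalings and filters, a fit without robust estimation, only the groups compared, a replicate block, the Tgtp pair summed, the most abundant genes removed, and each library left out. Levels per kb used exon bases outside other gene models of the same strand. Genes were named by a rule: all members, the members of each list called or with the smallest p, and the 8 genes most like the members in pattern. The members and the lists were chosen with earlier results of these data known. Start windows came from RefSeq. The values of 1 gene of the interferon gamma list are not reported here.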

Additional observations from a re-analysis of the deposited data

Results flagged for a closer look

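The share of reads that the counting set aside as overlapping more than 1 gene, a quantity no comparison uses, was above the saline range in 5 vector libraries. AAV-GFP libraries 1 to 3 had 2.498%, 3.655% and 2.187%. AAV-GFP-MBNL1∆ libraries 1 and 2 had 2.269% and 2.204%. The saline libraries held 2.11%, 2.13% and 2.15%. The genes these reads came from cannot be read from the tables.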

How the results depend on the processing

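Each result was recomputed under 21 other settings, and no member changed direction in any of them. Against saline with AAV-GFP, 0 of 7 members were called by edgeR, but 7 were with DESeq2, 7 with limma-voom with quality weights and 7 without AAV-GFP 3. Leaving out each library in turn gave between 0 and 7. Against saline with AAV-GFP-MBNL1∆, the 2 calls became 0 with no low-count filter, and leaving out a library gave between 0 and 2. Without the filter the median log2 fold change was 0.75 in place of 1.96, because Tgtp1 and Igtp then enter with 7 and 8 counts in all. Between the vectors, the 7 calls became 1 with no low-count filter, 1 when only those 2 groups were fitted, and between 0 and 7 when a library was left out. The medians under these omissions ran from 4.23 to 5.53, from 1.68 to 2.61 and from -3.96 to -2.29 in the 3 comparisons. With a replicate block the calls were 2, 1 and 4. Most of these counts are not set beside the share of all genes called, and they are no result particular to the members. Same-numbered libraries had correlations of their deviations between -0.0824 and 0.446, so the numbers are not shown to pair the libraries. Over all genes, 882 were called higher with AAV-GFP-MBNL1∆ than with saline, and 286 without AAV-GFP-MBNL1∆ 3. Depth did not limit the 7 tested members, the lowest of which had counts in every library. Where a call changed, the cause was not tested.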

Other observations

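9930111J21Rik2, a tandem IRG relative beside the Tgtp genes, moved unlike the members. It was at 3.04 ± 0.119 CPM with saline, 5.86 ± 2.54 with AAV-GFP and 1.51 ± 0.184 with AAV-GFP-MBNL1∆ (SD, n = 3), so its level with the second vector was below saline and not above. Between the vectors it changed by -1.96 on the log2 scale (SE 0.28, adjusted p 0.00432 by edgeR's quasi-likelihood test), and the call was kept in all 9 omissions of a library. Against saline the log2 fold change by edgeR was -1.01 (SE 0.28, adjusted p 0.0555) with AAV-GFP-MBNL1∆ and 0.95 (SE 0.27, adjusted p 0.1145) with AAV-GFP. Of the 50-base stretches of 9930111J21Rik2, 56.1% also occur in 9930111J21Rik1, so its counts are uncertain in level. The AAV-GFP-MBNL1∆ libraries also differ from the others in Xist and Ddx3y, and the part of sex in this value cannot be told apart from treatment.

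Genes of other lists also lay inside longer genes of their strand with 0 counts. Irf8, a macrophage factor of the interferon gamma list, and Gbp9, Gbp10 and Map1lc3b were among them.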
